A study of Mus musculus with 10 samples.

Results

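The genes described here are 10 markers of dermal fibroblasts, chosen by gene symbol: *Pdgfra*, *Pdgfrb*, *Dcn*, *Lum*, *Dpt*, *Dpp4*, *Crabp1*, *Fap*, *Postn* and *Acta2*. All 10 were among the 24454 genes counted and among the 15543 genes that had enough counts to be tested. RNA was sequenced from whole-thickness back skin of C57BL/6 mice, 5 wild-type (WT) and 5 that carried the TTP delta ARE knock-in allele (*Zfp36*ΔARE). In that allele the AU-rich elements of the 3′-UTR of *Zfp36* are removed, in every cell of the animal. *Zfp36* encodes tristetraprolin (TTP), a protein that binds AU-rich elements in mRNAs and promotes their decay. Both groups were 7 weeks old at the start and received 400 nmol DMBA, a mutagen, on the shaved back. From 1 week later, 10 nmol TPA, a tumour promoter, was applied repeatedly to the same skin for 20 weeks, and the skin sampled was treated but free of tumour. No untreated skin was sequenced in this comparison, and the labels give neither the sex of the mice nor the number of knock-in alleles.

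Fibroblasts build and maintain the collagen-rich dermis. Under PDGF signals, received through the receptors PDGFRα and PDGFRβ, they proliferate and migrate, and they secrete small proteoglycans such as decorin and lumican that coat collagen fibrils. Fibroblasts of the upper (papillary) and the lower (reticular) dermis differ in their marker genes. In wounds and in the stroma of tumours, fibroblasts take up an activated state marked by periostin and fibroblast activation protein, and some become contractile myofibroblasts with smooth muscle actin.

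Since TTP acts on AU-rich elements, the 3′-UTRs of the 10 genes were searched for the pentamer ATTTA, the core of such elements, and for the longer TTATTTATT, on the sense strand only (a TTATTTATT also holds an ATTTA). With the longest annotated 3′-UTR of each gene (GENCODE M21, GRCm38/mm10), 7 of the 10 genes held an ATTTA and 0 held a TTATTTATT. Of the 14401 tested genes with an annotated 3′-UTR, 68.9% held an ATTTA and 7.94% a TTATTTATT. *Dpp4* had 10 pentamers in 2545 bases, *Pdgfra* 5 in 3115 bases, *Lum* 4 in 652 bases and *Acta2* 2 in 577 bases. *Pdgfrb*, *Fap* and *Postn* had 1 each, and *Dcn*, *Dpt* and *Crabp1* had 0. With the shortest annotated 3′-UTR, 5 of the 10 genes held the pentamer, since those of *Pdgfra* and *Postn* no longer did. One window of 29 bases is shown for 6 of the genes, as DNA letters of the transcript strand from 5′ to 3′ with ATTTA in capitals, so that the letters can be read beside the levels. The windows lie at chr5:75195868-75195896 (plus strand) for *Pdgfra*, chr10:97572197-97572225 (plus) for *Lum* and chr2:62332578-62332606 (minus) for *Dpp4*. Those of *Fap*, *Postn* and *Acta2* lie at chr2:62501083-62501111 (minus), chr3:54390808-54390836 (plus) and chr19:34241449-34241477 (minus). A match describes the letters and is not a measured TTP site.
Pdgfra: gcagtttttgacATTTAtattaagtaaca
Lum: tatgaacATTTAccacATTTAaataaaag
Dpp4: tctccatagcttATTTAagaccacatttg
Fap: aagccgctaaaaATTTAggagggctcagg
Postn: tttttacacttgATTTAtatcctcgagat
Acta2: taggtgagaatcATTTAttatagggtggc

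The genes are spread over 8 chromosomes. *Dcn* (chr10:97479609-97518143) and *Lum* (chr10:97565128-97572703) both lie on the plus strand, 46984 bases apart. *Dpp4* (chr2:62330073-62412231) and *Fap* (chr2:62500943-62574075) both lie on the minus strand, 88711 bases apart. DPP4 and FAP are related proteases of the cell surface, and decorin and lumican are related leucine-rich proteoglycans. *Pdgfra* (chr5:75152292-75198215), *Pdgfrb* (chr18:61045150-61085061), *Dpt* (chr1:164796644-164824266), *Crabp1* (chr9:54764748-54773110) and *Postn* (chr3:54361109-54391037) lie on plus strands. *Acta2* (chr19:34241090-34255590) lies on the minus strand.

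Libraries held 19595035 to 36419573 counts. *Zfp36* itself was higher in the *Zfp36*ΔARE libraries (4196 to 6134 normalized counts) than in the WT libraries (1824 to 2496), a log2 difference of 1.33 (SE 0.12, adjusted p = 0.00195 by the quasi-likelihood test of edgeR, adjusted after Benjamini and Hochberg). A normalized count is the count scaled for library size and composition by TMM. Counts of Y-linked genes were found in 4 of the 5 *Zfp36*ΔARE libraries, replicates 2 to 5. *Xist* was at 16154 to 21084 normalized counts in the WT libraries and at 21047 in *Zfp36*ΔARE replicate 1, but at 5.3 to 16.5 in the other *Zfp36*ΔARE libraries. Sex and genotype can therefore not be told apart in most of the data, and values for the 5 WT libraries against *Zfp36*ΔARE replicate 1 alone are given with the results. WT replicates 1 and 3 stood apart by low hair shaft keratin counts (13247 and 1966 summed normalized counts, against 73108 to 98217 in the other WT libraries and 151158 to 451979 in the *Zfp36*ΔARE libraries).

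Of the 10 genes, 6 were lower in *Zfp36*ΔARE than in WT skin at an adjusted p under 0.05 and 0 were higher. The share of all tested genes called lower was 19.1%, called higher 15.3%, and called in either direction 34.3%. These shares also stand beside the counts of called genes in the lists below. The genes and lists were chosen with earlier results of these data known, so such counts beside the shares are a description only. The 6 were both PDGF receptors, the 3 matrix genes *Dcn*, *Lum* and *Dpt*, and *Postn*. *Dpp4*, *Crabp1*, *Fap* and *Acta2* did not pass the test. The median log2 difference of the 10 genes was -0.59, against 0.01 over all genes tested. The libraries did not overlap for 3 of the 10, all lower in *Zfp36*ΔARE (*Pdgfra*, *Pdgfrb* and *Dpt*), beside 11.9% of all tested genes lower and 11.2% higher with no overlap. Together the 10 genes took 0.226% to 0.332% of all counts in the WT libraries and 0.148% to 0.219% in the *Zfp36*ΔARE libraries. In whole skin, fewer fibroblasts and less of an RNA per fibroblast cannot be told apart.

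**Figure D1:**
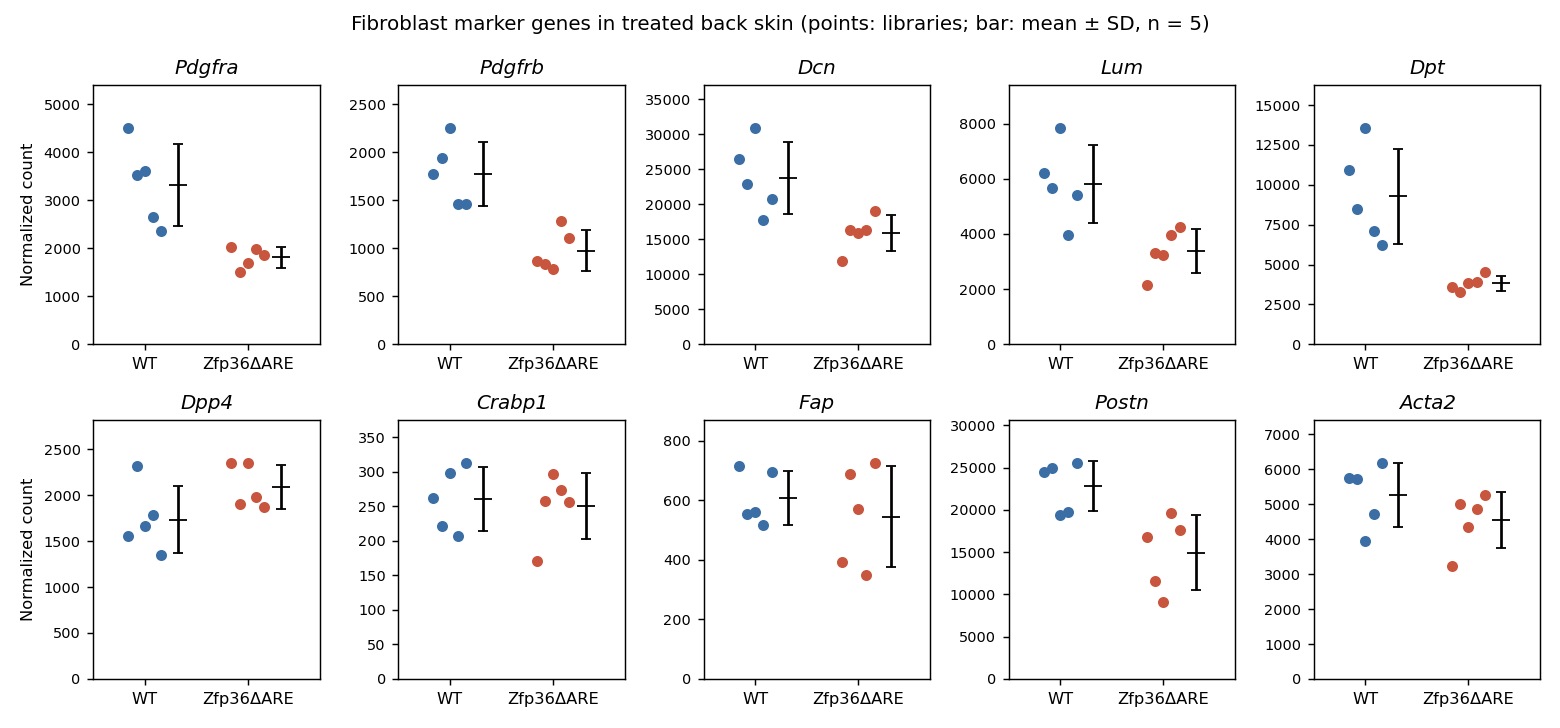
Normalized counts (vertical axes, from 0, a separate scale for each gene) of the 10 marker genes in each library, with the mean and SD of the 5 libraries per genotype beside the points. The genotypes do not overlap for *Pdgfra*, *Pdgfrb* and *Dpt*, and they share much of their range for *Dpp4*, *Crabp1*, *Fap* and *Acta2*.

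*Pdgfra* encodes the PDGF receptor that marks fibroblasts of the dermis in general. It was at 4501, 3517, 3612, 2642 and 2355 normalized counts in WT replicates 1 to 5 and at 2020, 1495, 1686, 1988 and 1851 in *Zfp36*ΔARE replicates 1 to 5. Every WT library lay above every *Zfp36*ΔARE library, the nearest pair being WT replicate 5 and *Zfp36*ΔARE replicate 1. The means were 3325 ± 853 and 1808 ± 219 (SD, n = 5 each), and *Pdgfra* fell by 0.88 on the log2 scale (SE 0.17, 95% interval -1.25 to -0.51, adjusted p = 0.00721 by edgeR). *Pdgfrb*, whose receptor is carried by fibroblasts and also by pericytes and smooth muscle cells, was at 1773, 1939, 2252, 1466 and 1466 in WT and at 866, 835, 784, 1288 and 1109 in *Zfp36*ΔARE skin. The WT libraries were again all higher, and *Zfp36*ΔARE replicates 1 to 3 were the low ones. The fall was 0.87 on the log2 scale (SE 0.16, 95% interval -1.23 to -0.50, adjusted p = 0.00719 by edgeR), from 1779 ± 334 to 976 ± 215 normalized counts.

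Among the genes that encode PDGF ligands and the receptor-like protein *Pdgfrl*, 2 of 5 were lower and 0 higher, with a median log2 difference of -0.16. *Pdgfb*, the ligand known from endothelial cells, went from 618 ± 117 to 397 ± 54.9 normalized counts (log2 difference -0.64, adjusted p = 0.0106 by edgeR) with no overlap between genotypes. *Pdgfc* fell by 0.56 on the log2 scale (adjusted p = 0.0374), while *Pdgfa*, a ligand made by epidermal cells, had a log2 difference of -0.16 (adjusted p = 0.229) and *Pdgfrl* one of -0.10 (adjusted p = 0.813). *Pdgfc* lost its call without any one of WT replicates 1, 2 and 3 and *Zfp36*ΔARE replicates 1, 2 and 5, which left 1 gene lower.

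Of the matrix genes, *Dpt* had the largest difference of the 10. Dermatopontin binds decorin and helps to assemble collagen fibrils. Its gene was at 10951, 8453, 13554, 7121 and 6253 normalized counts in WT and at 3571, 3285, 3819, 3932 and 4522 in *Zfp36*ΔARE libraries. The WT libraries varied over a broad range, and the *Zfp36*ΔARE libraries lay close together below all of them. *Dpt* fell by 1.28 on the log2 scale (SE 0.20, 95% interval -1.72 to -0.84, adjusted p = 0.0048 by edgeR), which is 2.42-fold. It was the only one of the 10 with a fold change over 2, beside 6.64% of all tested genes lower and 1.67% higher at that fold.

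*Dcn*, which encodes decorin, was at 26542, 22966, 30881, 17682 and 20778 normalized counts in WT and at 11876, 16335, 15891, 16373 and 19106 in *Zfp36*ΔARE libraries. The genotypes overlapped, since WT replicate 4 lay below *Zfp36*ΔARE replicate 5, and *Zfp36*ΔARE replicate 1 was the lowest of all. The difference was -0.58 on the log2 scale (SE 0.16, 95% interval -0.94 to -0.22, adjusted p = 0.0232 by edgeR), 1.49-fold lower, and the call was lost without WT replicate 1 (adjusted p = 0.0549). *Lum*, which encodes lumican, followed *Dcn*, with 6214, 5672, 7840, 3945 and 5405 in WT and 2161, 3322, 3223, 3948 and 4258 in *Zfp36*ΔARE libraries. The overlap again came from WT replicate 4, which lay just below *Zfp36*ΔARE replicate 4. The difference was -0.78 (SE 0.20, 95% interval -1.23 to -0.33, adjusted p = 0.0178 by edgeR). After the genotype means were subtracted, log2 levels of *Dcn* and *Lum* had a Pearson r of 0.96 over the 10 libraries, the highest of the 45 pairs among the 10 genes. The next pairs were *Dcn* with *Dpt* (0.79) and *Dpt* with *Pdgfra* (0.76), and the lowest was *Crabp1* with *Dpp4* (-0.55). These correlations describe 10 libraries that also differ in depth and tissue makeup.

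Among the other small leucine-rich proteoglycans, 5 of the 11 tested were lower and 0 higher, with a median log2 difference of -0.46. *Bgn*, which encodes biglycan, went from 13946 ± 1599 to 10172 ± 1386 normalized counts (log2 difference -0.46, adjusted p = 0.0149 by edgeR). *Ogn* and *Aspn* fell by 0.75 (adjusted p = 0.0199) and 0.80 (adjusted p = 0.0191), and *Prelp* had a log2 difference of -0.29 (adjusted p = 0.0677). The count of 5 was 3 without any one of *Zfp36*ΔARE replicates 1, 2 and 3 and 1 without WT replicates 1 and 3 together, while *Bgn*, *Ogn* and *Aspn* kept their calls without any single library. Among 28 other general fibroblast genes, 26 were lower and 0 higher, and the median was -0.90. Of the 28, 20 were lower with no overlap between genotypes, beside 11.9% of all tested genes. *Gsn*, which encodes the actin-severing protein gelsolin, went from 55238 ± 15683 to 28650 ± 1680 (log2 difference -0.95, adjusted p = 0.00601). *Fbn1*, which encodes the microfibril protein fibrillin-1, fell by 1.18 (adjusted p = 0.00369), the microfibril-associated gene *Fbln2* by 0.77 (adjusted p = 0.00814) and *Mmp2*, which encodes a gelatinase, by 0.54 (adjusted p = 0.0481). The call of *Mmp2* was lost without any one of 7 libraries (WT replicates 1 to 3 and *Zfp36*ΔARE replicates 1 to 4). *Tcf4* and *Sfrp2* did not pass.

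The fibrillar collagen genes, the main products of these cells, did not pass the test. *Col3a1* had a log2 difference of -0.59 (adjusted p = 0.107), *Col1a1* one of -0.21 (adjusted p = 0.637) and *Col1a2* one of -0.15 (adjusted p = 0.751) by edgeR. Together they took 5015 to 11309 CPM (counts scaled to a common library size) in WT and 2772 to 8822 in *Zfp36*ΔARE libraries. The lowest of the 10 libraries was *Zfp36*ΔARE replicate 1, which was also the lowest for *Dcn*, *Lum*, *Crabp1* and *Acta2*.

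*Dpp4* and *Crabp1* are used to tell dermal fibroblasts apart by position and lineage. *Dpp4* encodes a protease of the cell surface, also made by other skin cells, and was the only one of the 10 genes with a positive difference. It was at 1552, 2316, 1663, 1788 and 1352 normalized counts in WT and at 2348, 1903, 2350, 1976 and 1871 in *Zfp36*ΔARE libraries. WT replicate 2 lay with the *Zfp36*ΔARE libraries and the other 4 WT libraries lay below all of them. The log2 difference was 0.27 (SE 0.14, 95% interval -0.03 to 0.57, adjusted p = 0.141 by edgeR), and without WT replicate 2 it was 0.40 (adjusted p = 0.0222). *Crabp1*, a retinoic acid binding protein of some upper dermal and hair follicle fibroblasts, had the fewest counts of the 10, at 262, 221, 298, 207 and 313 in WT and 170, 257, 296, 274 and 256 in *Zfp36*ΔARE libraries. The ranges overlapped almost fully apart from *Zfp36*ΔARE replicate 1. Its log2 difference was -0.05 with a 95% interval of -0.42 to 0.31 (adjusted p = 0.818 by edgeR), and the sign turned without that library (0.06) or without WT replicate 5 (0.02).

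Of 7 papillary dermis genes, 1 was lower and 1 higher, with a median of -0.17, and of the 5 reticular dermis genes tested, 4 were lower and 0 higher, with a median of -0.97. The difference between the lists was not tested. Counts from whole skin do not show which cells made these RNAs, and the part of cells other than fibroblasts in both lists was not tested. In the papillary list, *Axin2*, a target of Wnt signalling, went from 1198 ± 112 to 1777 ± 290 normalized counts (log2 difference 0.57, adjusted p = 0.00807 by edgeR), and *Ntn1* fell by 0.42 (adjusted p = 0.0120), both with no overlap. *Lrig1* (-0.17, adjusted p = 0.433) and *Apcdd1* (0.19, adjusted p = 0.319) did not pass. In the reticular list, *Plac8* fell by 1.66, from 595 ± 250 to 189 ± 27.1 (adjusted p = 0.00614), and *Cd34*, a marker shared with endothelial and hair follicle cells, fell by 1.10 (adjusted p = 0.0040), both with no overlap. *Gpx3* fell by 0.97 (adjusted p = 0.0300) and *Ly6a* by 0.49 (adjusted p = 0.0359). The reticular count was 2 without any one of WT replicates 1 and 3 and *Zfp36*ΔARE replicates 1, 2 and 3, where *Gpx3* and *Ly6a* lost their calls (*Gpx3* also without *Zfp36*ΔARE replicate 4). The papillary count of lower genes was 2 without any one of WT replicates 4 and 5 and *Zfp36*ΔARE replicates 4 and 5.

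*Fap*, *Postn* and *Acta2* are markers of activated fibroblasts. *Postn* encodes periostin, a matrix protein of wounds and tumour stroma, and was at 24485, 24912, 19406, 19782 and 25571 normalized counts in WT and at 16848, 11612, 9051, 19636 and 17663 in *Zfp36*ΔARE libraries. *Zfp36*ΔARE replicates 2 and 3 were far below the rest, and replicate 4 lay within the WT range. *Postn* fell by 0.61 on the log2 scale (SE 0.20, 95% interval -1.05 to -0.17, adjusted p = 0.0391 by edgeR). The call was lost without any one of WT replicates 1, 2 and 5 or *Zfp36*ΔARE replicates 1, 2 and 3, with adjusted p from 0.0562 to 0.0888. *Fap* encodes a protease of activated stroma and was at 717, 553, 560, 517 and 696 in WT and at 392, 688, 572, 349 and 725 in *Zfp36*ΔARE libraries. *Zfp36*ΔARE replicates 1 and 4 were the lowest of the 10 libraries and replicate 5 the highest. Its log2 difference was -0.16 with a 95% interval of -0.61 to 0.29 (adjusted p = 0.561 by edgeR). The coefficient of variation among *Zfp36*ΔARE libraries was 31.2% for *Fap* and 29.7% for *Postn*, against 14.97% and 13.1% among WT libraries.

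*Acta2* encodes smooth muscle α-actin, made by myofibroblasts and also by the muscle of vessels and hair follicles. It was at 5761, 5715, 3944, 4707 and 6180 normalized counts in WT and at 3241, 4998, 4349, 4863 and 5267 in *Zfp36*ΔARE libraries. The genotypes overlapped over most of their range. The log2 difference was -0.21 with a 95% interval of -0.55 to 0.12 (adjusted p = 0.29 by edgeR). Its coding sequence is close to that of other actin genes, so its counts are uncertain to the extent that fragments were shared among them. The skeletal muscle markers, *Acta1* among them, were highest in WT replicate 3, where *Acta2* was lower than in any other WT library. This describes a single library, and the sharing of fragments among actin genes was not tested.

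In the wider activated list, 5 of 14 were lower and 1 higher, with a median of -0.25. *Fn1*, which encodes fibronectin, fell by 1.02, from 16534 ± 4457 to 8156 ± 865 (adjusted p = 0.00526 by edgeR), with no overlap, and *Col5a2* fell by 0.69 (adjusted p = 0.0148). *Sparc*, a collagen-binding matrix protein, had a log2 difference of -0.01 (adjusted p = 0.983), with its lowest value of the 10 libraries in *Zfp36*ΔARE replicate 1. *Lrrc15*, used as a marker of tumour myofibroblasts, rose by 1.30 (SE 0.43, adjusted p = 0.0391). Its call was lost without any one of WT replicate 1 and *Zfp36*ΔARE replicates 1, 2, 3 and 4 (adjusted p from 0.0587 to 0.0875), and also with no filter on low counts. Of 14 genes of smooth muscle and pericytes, 7 were lower and 0 higher, with a median of -0.65. The most abundant genes of that list did not pass: *Tagln* (-0.13, adjusted p = 0.607), *Smtn* (0.38, adjusted p = 0.209), *Notch3* (0.09, adjusted p = 0.431) and *Ndufa4l2* (-0.03, adjusted p = 0.888). Lower with no overlap were *Myh11* (-1.04, adjusted p = 0.00998 by edgeR), *Cnn1* (-1.03, adjusted p = 0.00624), *Rgs5* (-0.85, adjusted p = 0.00872) and *Mcam* (-0.50, adjusted p = 0.0101). These kept their calls without any single library, and the other called genes of the list overlapped between genotypes.

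**Figure D2:**
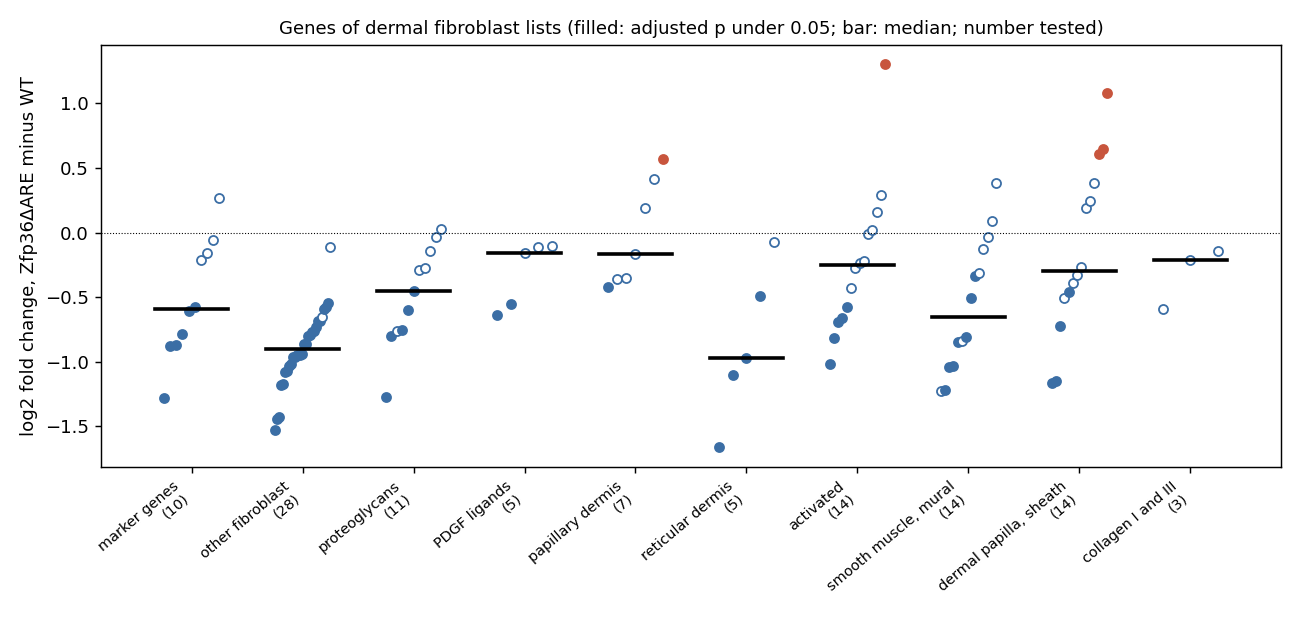
Log2 fold change (vertical axis, *Zfp36*ΔARE minus WT) of every tested gene in each fibroblast-related list, with filled points for an adjusted p under 0.05 and a bar at each list's median. The median is lowest for the reticular dermis list (-0.97) and the other general fibroblast genes (-0.90), and 5 genes of 3 lists lie above 0 with filled points.

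Per length, the order of the 10 genes was set by the matrix genes. Lengths are those given with the counts, and levels are RPKM, fragment counts per unit of gene length and library size. In WT skin, *Dcn* was at 423 ± 91.2 RPKM, followed by *Postn* (260 ± 33.9), *Dpt* (212 ± 68.3), *Lum* (105 ± 25.5) and *Acta2* (76.7 ± 13.3). *Pdgfra* came next at 18.5 ± 4.75, before *Pdgfrb* (12.3), *Crabp1* (12.2), *Dpp4* (10.3) and *Fap* (8.44). Neighbours in this order overlapped between libraries except *Dcn* with *Postn*, *Dpt* with *Lum*, and *Acta2* with *Pdgfra*. In *Zfp36*ΔARE skin, *Dcn* (284 ± 46.2), *Postn* (170 ± 50.5) and *Dpt* (87.6 ± 10.6) still led, and *Acta2* (66.2) and *Lum* (61.1) stood in the opposite order. Then came *Dpp4* (12.4), *Crabp1* (11.7), *Pdgfra* (10.1), *Fap* (7.56) and *Pdgfrb* (6.76), and among all neighbours only *Lum* and *Dpp4* did not overlap.

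Each gene was then set against *Dcn*, so that the scale was a fibroblast transcript and not the whole library. This scaling was chosen after the values were seen, and it moved the median log2 difference of all genes to 0.57, with 3.73% of genes called lower and 53.5% higher. Of the other 9 genes, 1 was lower and 2 were higher per *Dcn*. *Dpt* was lower, by -0.66 on the log2 scale (95% interval -1.10 to -0.21, adjusted p = 0.0151 by edgeR). The log2 ratio of *Dpt* to *Dcn* counts was -1.28, -1.44, -1.19, -1.31 and -1.73 in WT and -1.73, -2.31, -2.06, -2.06 and -2.08 in *Zfp36*ΔARE libraries, with WT replicate 5 and *Zfp36*ΔARE replicate 1 almost equal. *Dpp4* was higher by 0.84 (95% interval 0.37 to 1.31, adjusted p = 0.00689), and its log2 ratio to *Dcn* overlapped between genotypes. *Crabp1* was higher by 0.50 (95% interval 0.07 to 0.92, adjusted p = 0.0420), which is below the median of all genes on this scale. *Pdgfra* (-0.26, adjusted p = 0.292), *Pdgfrb* (-0.28, adjusted p = 0.219), *Lum* (-0.21, adjusted p = 0.376) and *Postn* (-0.05, adjusted p = 0.877) did not pass, and neither did *Fap* (0.37, adjusted p = 0.133) or *Acta2* (0.30, adjusted p = 0.249).

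**Figure D3:**
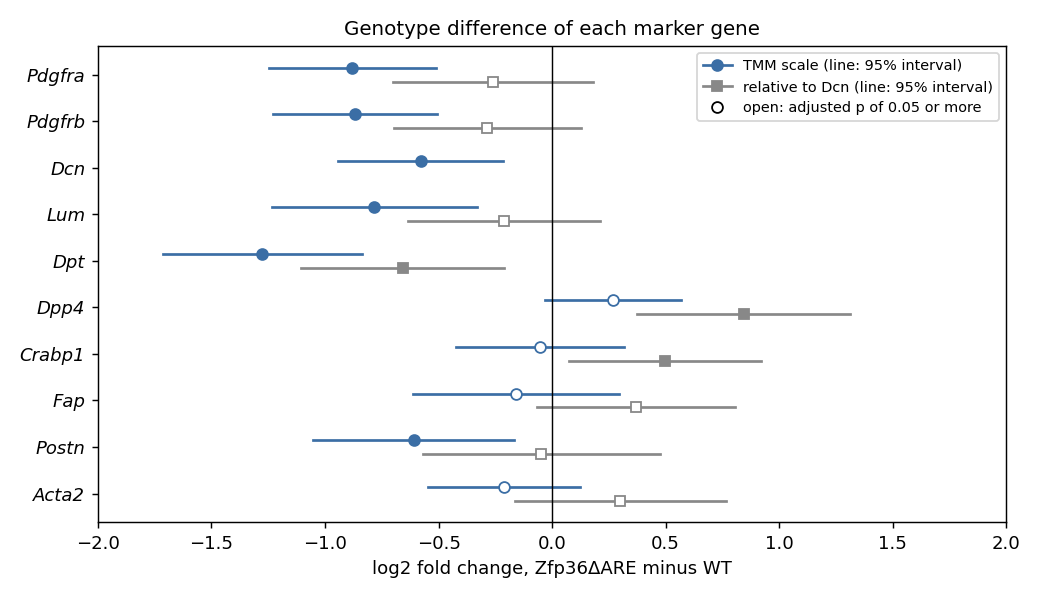
Log2 fold change (horizontal axis, *Zfp36*ΔARE minus WT) of each gene on the TMM scale (circles) and relative to *Dcn* (squares), with 95% intervals and open symbols for an adjusted p of 0.05 or more. *Dpt* is below 0 on both scales, and the *Dpp4* interval lies above 0 relative to *Dcn* and reaches -0.03 on the TMM scale.

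Scaled to the summed counts of *Col1a1*, *Col1a2* and *Col3a1*, 0 of the 10 genes passed (edgeR, and 0 at an unadjusted p under 0.05). On this scale 0.257% of all tested genes were called lower and 1.65% higher, and the median log2 difference of all genes was 0.47. The collagen counts varied widely, so the intervals were broad: -1.62 to 0.11 for *Dpt* (-0.76) and -0.09 to 1.60 for *Dpp4* (0.76). Without *Zfp36*ΔARE replicate 1, the library with the fewest collagen counts, *Dpt* passed (-1.13, SE 0.34, adjusted p = 0.0173), beside 5.7% of all genes called lower. With that library alone against the 5 WT libraries, the low collagen counts moved the median of all genes to 1.45 and 66.6% of them were called higher. *Dpp4* was among these (1.87, SE 0.56, adjusted p = 0.00656), and on the TMM scale it was not called in the same libraries (0.44, adjusted p = 0.385). In fits with 1 *Zfp36*ΔARE library, that library is assumed to vary like the WT libraries.

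WT replicates 1 and 3 were the highest pair for 4 of the 5 genes *Pdgfra*, *Pdgfrb*, *Dcn*, *Lum* and *Dpt*, *Pdgfrb* being the exception. Without both, *Pdgfra* (-0.65, adjusted p = 0.0183), *Pdgfrb* (-0.74, adjusted p = 0.0274) and *Dpt* (-0.93, adjusted p = 0.00469) were still lower by edgeR, beside 9.06% of all genes. *Dcn* (-0.36, adjusted p = 0.124) and *Lum* (-0.57, adjusted p = 0.103) were nearer to 0 and not called. *Postn* was not called either (adjusted p = 0.102), though its difference was no smaller (-0.65). Against *Zfp36*ΔARE replicate 1 alone, the library that shared high *Xist* with the WT libraries, 0 of 16373 genes were called by edgeR. There 6 of the 10 genes were lower at an unadjusted p under 0.05, beside 9.87% of all genes: *Lum* (-1.42), *Dpt* (-1.37), *Pdgfrb* (-1.04), *Dcn* (-0.998), *Acta2* (-0.70) and *Fap* (-0.63). *Zfp36*ΔARE replicate 1 also had the fewest collagen counts (2772 CPM, against 5015 to 11309 in the WT libraries). The part of its dermal content in these differences was not tested. The other differences were -0.72 for *Pdgfra*, -0.61 for *Crabp1*, -0.44 for *Postn* and 0.44 for *Dpp4*. The 6 are therefore not the 6 called over all libraries, since they include *Acta2* and *Fap* and lack *Pdgfra* and *Postn*.

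Most markers of endothelial cells, macrophages, adipocytes and skeletal muscle were lower, like the fibroblast genes. Those of Schwann cells and keratinocytes were mostly not called, and hair shaft keratins went the other way. The part of these cells in the fibroblast gene differences was not tested. Beside the counts that follow, 19.1% of all tested genes were called lower and 15.3% higher. Of 8 endothelial markers 7 were lower (summed normalized counts 5730 to 12544 in WT, 3534 to 4602 in *Zfp36*ΔARE libraries), and so were 8 of 8 macrophage markers (15965 to 33382, 7860 to 12426). The same held for 6 of 8 adipocyte markers (49459 to 99759, 34287 to 45716) and 9 of 10 skeletal muscle markers (207420 to 1031850, 119986 to 270115). Of 5 Schwann cell markers 2 were lower (2520 to 4127, 1746 to 2264). Of 6 basal keratinocyte markers 2 were lower (196049 to 317999, 166698 to 340057), and of 5 suprabasal markers 0 were lower and 1 higher (271120 to 418709, 166131 to 385774). The 9 hair shaft keratin genes were all higher in *Zfp36*ΔARE libraries with no overlap between genotypes, beside 11.2% of all tested genes. Their median log2 difference was 2.30, although only 1 passed the test (0 to 6 without single libraries). The basal keratinocyte count was 0 to 2, and the suprabasal count of lower genes 0 to 1, without single libraries. None of these lists had a marker at 0 in every library.

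**Figure D4:**
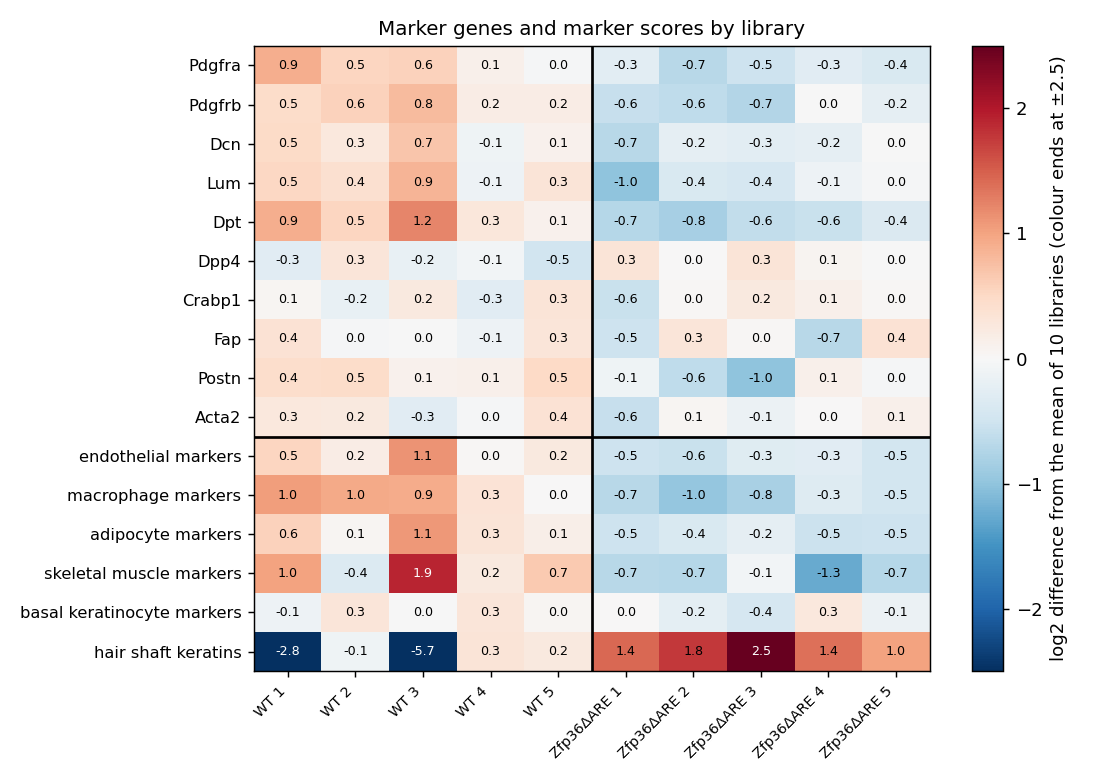
Log2 difference of each library (columns) from the mean of the 10 libraries for the 10 marker genes and for the scores of other cell types (rows), in colour and as printed values. WT replicates 1 and 3 are high in *Pdgfra*, *Dcn*, *Lum* and *Dpt* and in macrophage and adipocyte markers and low in hair shaft keratins, while *Zfp36*ΔARE replicate 1 is low in *Dcn* and *Lum*.

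Genes most like 5 of the markers were found by the Pearson correlation of log2 levels over the 10 libraries after subtracting the genotype means, among 12716 genes with a mean of at least 100 normalized counts. They are given as a description, since the libraries differ in depth and tissue makeup. *Rftn2* (0.98), *Aebp1* (0.98), *Rnf144a* (0.97) and *Sec16b* (0.96) were most like *Dcn*. For *Acta2* they were *Chaf1b* (0.95), *Gins1* (0.95), *Wisp1* (0.94) and *Smc1a* (0.94), and for *Postn* they were *Stim2* (0.93), *Fxyd3* (0.90), *Cyp1a1* (0.90) and *Auts2* (0.88). *Dpp4* was followed most closely by *2810474O19Rik* (0.95), *Ndfip1* (0.95), *Zfp655* (0.94) and *Cd164* (0.93), and *Crabp1* by *Lonp1* (0.92), *Gm12942* (0.91), *Plekha5* (0.91) and *Mrps24* (0.89). *Rftn2*, *Rnf144a*, *Sec16b*, *Cyp1a1* and *Wisp1* were also lower in *Zfp36*ΔARE skin, with adjusted p from 0.00369 to 0.0491 by edgeR.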

How the data were processed

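Total RNA from 10 full-thickness skin samples, labelled by genotype and number, was sequenced in paired ends. No label ties a sample to a named mouse, so p-values measure the spread between these samples, which may be partly technical. Per the methods and the labels, the authors removed reads with a low mean quality, mapped the remainder to mm10 by STAR 2.5.2b, assigned fragments to genes by featureCounts (Subread 1.5.0-p1) and used DESeq2 for testing. The deposited values are raw counts per gene, with a gene length in bases. The annotation, the strand setting and the handling of fragments that match several genes are not given in the sources used here. Rows with no gene name numbered 2 (7.38e-05% of counts) and were left out.

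These counts were scaled by TMM, filtered by filterByExpr and fitted over all 10 libraries by robust quasi-likelihood models with genotype alone (edgeR 4.0.16, R 4.3.3). Benjamini-Hochberg adjustment ran over all 15543 genes, and a call is an adjusted p under 0.05. Intervals are 95% intervals of the fitted difference. Replicate variation (biological coefficient, median over genes) was 14.9%. The procedure was tested on simulated data. Alternatives used DESeq2 1.42.0, limma 3.58.1 (voom), other scalings and filters, a replicate block, and fits without single libraries. Fits relative to *Dcn* and against a fold change of 2 (glmTreat) were added after the data were seen.

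The members and lists were chosen with earlier results of these data known. Genes named beside the members are *Zfp36*, the 3 collagen genes and the 4 tested genes with the most counts of each fibroblast list. The 4 genes most like each of 5 members are named too. Also named are *Tcf4*, *Sfrp2*, *Xist*, *Acta1*, *Sox18*, *Acan*, *Alpl*, *Myh11*, *Cnn1*, *Rgs5*, *Mcam* and list genes that rose, which were singled out after their values were seen.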

Additional observations from a re-analysis of the deposited data

How the results depend on the processing

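In each of 6 other fits, 6 of the 10 genes were lower: by DESeq2, by limma-voom, with the size factors of DESeq2, with upper-quartile scaling, unfiltered, or with 10 or more counts required in every library. Upper-quartile scaling called 3110 genes lower and 1964 higher, against 2962 and 2373. With collagen scaling, 0 genes were lower, 0 with a fold over 2, and of the 98 tested genes in the wider lists 0 were lower and 1 was higher, against 54 and 5. With *Dcn* scaling, 1 gene was lower and 2 were higher, 0 lower with a fold over 2, and 10 wider list genes were lower and 17 higher. These scalings called 40 lower and 256 higher, and 580 lower and 8308 higher, of all genes. They turned *Crabp1* to 0.35 and 0.50, *Fap* to 0.22 and 0.37 and *Acta2* to 0.15 and 0.30. By glmTreat against a fold change of 2, 0 of all genes were called and 0 members (1 at an unadjusted p under 0.05), and 0 wider list genes in either direction.

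Leaving out each library in turn gave 4 to 6 genes lower, 0 to 1 higher (*Dpp4* without WT replicate 2), 42 to 59 wider list genes lower and 1 to 5 higher, and 0 to 1 genes passing on the collagen scale. *Dcn* lost its call without WT replicate 1 (adjusted p = 0.0549 by edgeR). Without WT replicates 1 and 3 together, 3 genes were lower, 0 with a fold over 2, and 33 wider list genes were lower. There 9.06% of all genes were called lower, and *Crabp1* turned to 0.0167. Across the single libraries left out it ran from -0.13 to 0.06 (0.0577 without *Zfp36*ΔARE replicate 1), above 0 also without WT replicate 5. With *Zfp36*ΔARE replicate 1 alone, 0 genes were lower, 0 with a fold over 2, 0 wider list genes were called in either direction, and 1 gene passed on the collagen scale. The causes of these changes were not tested, beyond the fewer libraries.

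Libraries with the same replicate number did not deviate together (r from -0.19 to 0.09). The labels do not say whether the numbers pair the libraries, and these correlations cannot settle it. With the replicate block, 4 genes were lower (*Dcn* at an adjusted p of 0.0707 and *Lum* at 0.0563 were not), and 32 wider list genes were lower and 1 higher. By list, the block left 0 proteoglycan, 1 PDGF, 2 reticular, 2 activated and 1 dermal papilla genes lower, and 0 activated and 0 dermal papilla genes higher. The block called 1851 of all genes lower and 889 higher.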

Other observations

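Of the 98 tested genes in the wider fibroblast lists, 5 were higher in *Zfp36*ΔARE skin, against 54 lower. Over all tested genes, 15.3% were called higher and 19.1% lower. The 5 higher list genes were *Axin2* and *Lrrc15*, described with their lists, and *Bmp4*, *Corin* and *Rspo3*. The last 3 are known from the dermal papilla, the fibroblast cluster that instructs the hair follicle. *Bmp4* was at 701, 647, 387, 739 and 750 normalized counts in WT and at 838, 1203, 1065, 802 and 1004 in *Zfp36*ΔARE libraries, with no overlap (log2 difference 0.61, adjusted p = 0.0265 by edgeR). *Corin*, which encodes a membrane protease, was at 340, 384, 123, 406 and 282 in WT and at 487, 560, 996, 645 and 566 in *Zfp36*ΔARE libraries, again with no overlap (log2 difference 1.08, adjusted p = 0.0216). *Rspo3*, which encodes an enhancer of Wnt signalling, overlapped between genotypes and rose by 0.65 (adjusted p = 0.0324). *Corin* lost its call without *Zfp36*ΔARE replicate 3 (adjusted p = 0.0526), and *Bmp4* without *Zfp36*ΔARE replicate 2 or 3 (adjusted p from 0.0613 to 0.0653). *Rspo3* lost it without any one of 7 libraries. *Axin2* kept its call without any single library.

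Across the dermal papilla and sheath list, 4 of 14 tested genes were lower and 3 higher, with a median log2 difference of -0.30. The shares of all tested genes were 19.1% and 15.3%. Beside *Vcan*, the lower genes were *Sox18* (-1.15, adjusted p = 0.00676 by edgeR), with no overlap, *Acan* (-1.16, adjusted p = 0.0268) and *Alpl* (-0.46, adjusted p = 0.0268). *Sox18* kept its call without any single library, and *Acan* and *Alpl* each lost theirs in 4 of the 10 fits without 1 library. The endothelial markers had a median log2 difference of -0.98, and the part of endothelial cells in the *Sox18* difference was not tested. The count of higher genes was 0 without *Zfp36*ΔARE replicate 3 and 1 without *Zfp36*ΔARE replicate 2. The count of lower genes was 1 without any one of WT replicate 1 and *Zfp36*ΔARE replicates 3 and 4, and 2 without *Zfp36*ΔARE replicate 1. Its most abundant members were *Vcan*, which encodes versican and fell by 0.72 (adjusted p = 0.0489 by edgeR, lost in 9 of the 10 fits without 1 library), *Enpp2* (-0.51, adjusted p = 0.0930), *Wif1* (0.39, adjusted p = 0.309) and *Bmp4*.

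*Lrrc15* was at 7555, 16894, 3041, 18080 and 16330 normalized counts in WT and at 32196, 28470, 42449, 30546 and 19268 in *Zfp36*ΔARE libraries. It was lowest in WT replicates 3 and 1 and highest in *Zfp36*ΔARE replicate 3. The summed hair shaft keratins were also lowest in WT replicates 3 and 1 (1966 and 13247) and highest in *Zfp36*ΔARE replicate 3 (451979). *Corin* and *Bmp4* were also lowest in WT replicate 3. The part of hair follicle content in these differences was not tested.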
